A study of Homo sapiens with 16 samples.

Results

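The genes described here are 9 genes of thyroid follicular cell identity and thyroid hormone synthesis, taken by their symbols from the 25369 genes of the count table. They are the transcription factors PAX8, NKX2-1, FOXE1 and HHEX, the hormone precursor TG (thyroglobulin), the thyrotropin receptor TSHR, the iodide transporter SLC5A5, the hydrogen peroxide-producing oxidase DUOX2 and the deiodinase DIO2. The rule takes them by symbol alone, with no threshold on their values. Both cell lines, TPC1 and K1, derive from human papillary thyroid carcinoma. TPC1 cells were grown in RPMI medium and K1 cells, a derivative of the line GLAG-66, in DMEM. Each line was treated for 24 h with 0.2% DMSO as the vehicle, with 10 µM nutlin (nutlin-3a, an inhibitor of the p53 repressor MDM2), with 25 µM GSK2830371 (an inhibitor of the phosphatase PPM1D, another p53 repressor), or with both drugs, called the combination. Each of these 8 groups held 2 poly(A) RNA-seq libraries, 16 in all. The labels do not say whether the 2 libraries of a group came from separate cultures. The reporting summary of the study states, for its experiments in general, that replicates were made independently of each other. The p-values measure the spread between these libraries. Each line stands for itself as 1 cell culture model. In any comparison between the lines, the line cannot be told apart from its medium or from any other difference in handling.

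In the thyroid gland, PAX8, NKX2-1, FOXE1 and HHEX are expressed together in the follicular cell and are needed for the gland to form. They act on the genes of hormone synthesis. SLC5A5, also known as NIS, brings iodide into the cell, DUOX2 makes the hydrogen peroxide for iodination, and TG is the protein on which the hormone is built. TSHR receives the pituitary signal that drives these steps, and DIO2 converts thyroxine into the more active triiodothyronine. Loss of iodide uptake and of TG is known from dedifferentiated thyroid carcinoma, and cultured thyroid carcinoma lines are known to keep little of this program.

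Library totals ran from 30789887 to 76648552 counts in TPC1, where the libraries from the columns numbered 3 were the deeper ones, and from 28888686 to 37161241 in K1. CDKN1A, a classical p53 target and the check that nutlin acted, went from 128 to 150 CPM (the count of a gene scaled by its library total) in the TPC1 DMSO libraries to 6569 to 6689 CPM under nutlin, and from 110 to 118 CPM to 978 to 1046 CPM in K1. Markers of other cells were looked at in each library. Of 7 epithelial markers 3 were above 1 CPM (KRT7, KRT8 and KRT18), while CDH1 did not pass 0.0307 CPM in TPC1 or 0.0692 CPM in K1. Of 8 mesenchymal markers 7 were above 1 CPM in every group except the K1 combination, where 6 were. None of 4 blood markers was above 1 CPM in any group, and none of 4 endothelial markers except 1, TEK, in the TPC1 combination. Of 6 markers of the thyroid C cell, the defining one, CALCA, was at 0 in every TPC1 library and at most 0.0305 CPM in K1, while SYP reached 1.97 CPM in TPC1 and SCG2 1.39 CPM in K1.

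Sequences upstream of a few members are shown for the contrast in their expression, with PAX8 as the highest member, and HHEX and SLC5A5 as members that nutlin moved in opposite directions in TPC1. Each is the 250 bases before the RefSeq start site, on the strand of the gene and from 5′ to 3′, with every CpG dinucleotide in capitals. The sequences come from the RefSeq promoter table, whose build is GRCh38.p14. Each was found once on the strand and chromosome of its gene in GRCh37, the build of the counts, and other chromosomes were not searched. The GRCh37 positions are chr2:114036499-114036748 on the minus strand for PAX8, chr10:94449462-94449711 on the plus strand for HHEX and chr19:17982504-17982753 on the plus strand for SLC5A5.
PAX8: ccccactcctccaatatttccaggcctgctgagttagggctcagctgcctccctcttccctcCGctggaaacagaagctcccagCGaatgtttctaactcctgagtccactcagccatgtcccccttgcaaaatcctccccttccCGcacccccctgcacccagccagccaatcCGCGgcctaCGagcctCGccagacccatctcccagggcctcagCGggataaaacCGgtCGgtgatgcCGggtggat
HHEX: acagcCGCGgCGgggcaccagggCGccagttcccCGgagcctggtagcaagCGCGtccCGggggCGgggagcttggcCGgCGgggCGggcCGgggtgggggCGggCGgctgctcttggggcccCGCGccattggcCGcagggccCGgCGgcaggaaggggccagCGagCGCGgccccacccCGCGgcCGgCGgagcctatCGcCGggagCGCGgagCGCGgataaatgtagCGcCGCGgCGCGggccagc
SLC5A5: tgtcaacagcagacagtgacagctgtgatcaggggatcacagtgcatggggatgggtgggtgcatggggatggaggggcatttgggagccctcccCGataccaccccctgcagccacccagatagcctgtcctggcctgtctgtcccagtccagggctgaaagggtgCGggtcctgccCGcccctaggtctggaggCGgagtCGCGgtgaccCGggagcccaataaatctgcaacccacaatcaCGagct

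The HHEX window held 38 CpG dinucleotides, and 97.3% of the 35116 promoter windows of the table held as many or fewer. PAX8 held 11, the same as the median window of 11, SLC5A5 held 8 and TSHR held 7. Of the other members with an entry, FOXE1 held 26, DUOX2 15, NKX2-1 7 and 18 at its 2 starts, and DIO2 1 and 3. The table matched 8 of the 9 members, and TG is named here only. The relation of CpG content to the expression of the members was not tested. The motifs searched on both strands were the half-site of p53 by its name, TTTGAA, known as the cell cycle homology region, and CAAGTG, known as the core of NKX2-1 sites. The p53 half-site occurred in the window of 1 member, TSHR, which overlaps first exons of other annotated TSHR transcripts, and in 5.57% of all windows. TTTGAA occurred in 1 of the DIO2 windows and in 13.3% of all windows, and CAAGTG in 1 of the NKX2-1 windows and in 9.5% of all windows. These DIO2 and NKX2-1 windows lie within the annotated span of their own gene. A match is a run of letters and not a measured binding site.

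The first question was which of these genes the 2 lines express at all. PAX8 was the one member at a high level in both lines, FOXE1 and HHEX were present at moderate and low levels, and TSHR was without a single read in any of the 16 libraries. A member was called silent in a line if it did not exceed 0.1 CPM in at least 2 of the 8 libraries of that line. By this rule 3 members were silent in TPC1 (NKX2-1, TSHR and DIO2) and 2 were silent in K1 (TSHR and DIO2), leaving 6 members tested in TPC1 and 7 in K1. In TPC1, SLC5A5 and DUOX2 passed only through libraries with nutlin, alone or in the combination. In the TPC1 DMSO libraries SLC5A5 had no read and DUOX2 reached at most 0.0828 CPM. With a floor of 1 CPM in place of 0.1 CPM, 5 members would be silent in each line, the added ones being SLC5A5 and DUOX2 in TPC1 and NKX2-1, SLC5A5 and DUOX2 in K1.

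TSHR lies at chr14:81421333-81612650 on the plus strand, and the absence of reads over 673315351 counts allows at most 0.00446 CPM. NKX2-1, at chr14:36985597-36990354 on the minus strand, had 0 counts in all 8 TPC1 libraries, which allows at most 0.00726 CPM. In K1 the same gene had reads in all 8 libraries, between 1 and 10 per library and 38 in total. DIO2, at chr14:80663869-80854100 on the minus strand, had 8 counts in TPC1, in 3 of the 8 libraries, and 8 counts in K1, of which 5 fell in 1 DMSO library. These limits cover counting error only, since reads without molecular identifiers are not independent molecules.

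The transcription factors differed widely among themselves. PAX8 lies at chr2:113973574-114036498 on the minus strand, and the annotation places PAX8-AS1 on the opposite strand, from which the stranded counting separated it. In DMSO it stood at 326 ± 0.734 CPM in TPC1 and 770 ± 30.5 CPM in K1 (mean ± SD, n = 2 libraries here and for every group below). Divided by the length of the reference transcript, the PAX8 level was 80.4 CPM per kilobase in TPC1 and 190 in K1. FOXE1, a gene of 1 exon at chr9:100615508-100618999 on the plus strand, stood at 6.8 and 8.28 CPM per kilobase. HHEX, at chr10:94449712-94455404 on the plus strand, stood at 5.54 CPM per kilobase in TPC1 and 1.57 in K1, and NKX2-1 at 0.069 in K1. On this scale of length the genes of hormone synthesis were lower than PAX8, FOXE1 and HHEX in the DMSO libraries of both lines. TG stood at 0.0276 CPM per kilobase in TPC1 and 0.329 in K1, DUOX2 at 0.00651 and 0.0956, and SLC5A5 at 0 in TPC1 and 0.0197 in K1.

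**Figure D1:**
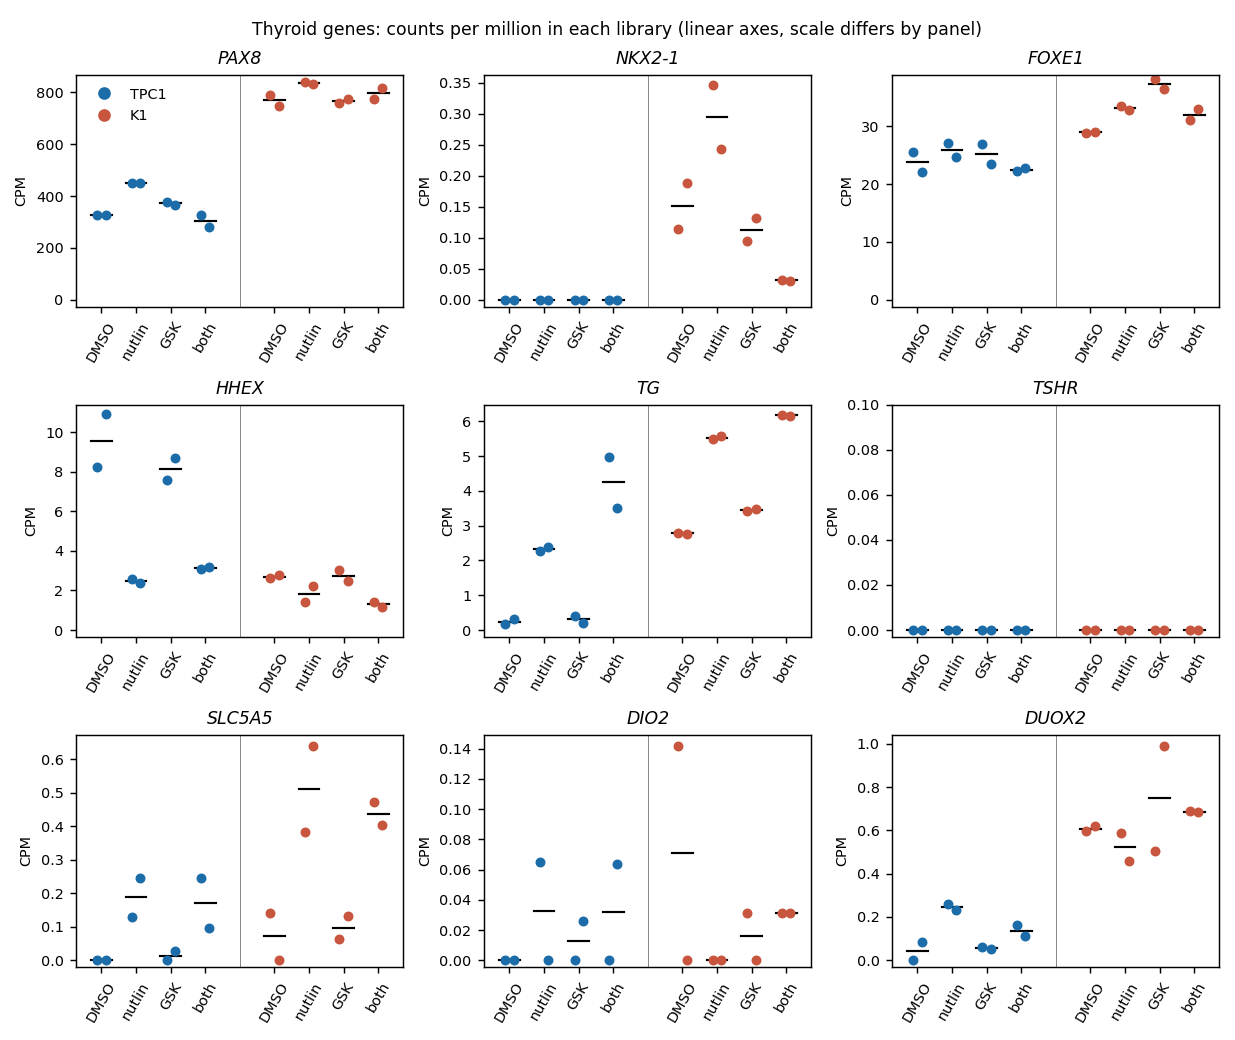
CPM of the 9 thyroid genes in each of the 16 libraries (points) with the mean of each group of 2 (black bars), for TPC1 in blue and K1 in red, on linear axes whose scale differs by panel. PAX8 sits between 280 and 841 CPM, TG is higher with nutlin and the combination in both lines, and TSHR is at 0 in every library.

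The lines under DMSO were then compared with each other, in 1 model of the 16 libraries and 16738 genes with edgeR's quasi-likelihood test. A gene was called where it changed by more than 1.5-fold and its Benjamini-Hochberg adjusted p was below 0.05, here and in every comparison below. K1 had more of 5 members than TPC1 and less of HHEX, so that 6 of the 7 members tested were called. Of all genes tested, 46.2% were called between the DMSO libraries of the lines. NKX2-1 was among the 7 only through K1 libraries, where it was higher. PAX8 had 12016 and 23671 counts in the TPC1 DMSO libraries, or 326 and 327 CPM, and 27856 and 27829 counts in K1, or 792 and 749 CPM. The log2 difference of K1 from TPC1 was 1.24 ± 0.074 (estimate ± SE, edgeR adjusted p = 2.4e-10). TG had 6 and 22 counts in TPC1 and 98 and 103 in K1. Its log2 difference was 3.43 ± 0.276 (edgeR adjusted p = 1.1e-08), and 4.09 without TPC1 DMSO replicate 3. DUOX2 had 0 and 6 counts in TPC1 and 21 and 23 in K1, a log2 difference of 3.41 ± 0.582 (edgeR adjusted p = 6.8e-05). The DUOX2 difference was 2.80 without TPC1 DMSO replicate 1, and without TPC1 DMSO replicate 3 the TPC1 group is left with no read and gives no estimate of its size. For all 3 genes both K1 libraries lay above both TPC1 libraries. The summed level of the 8 mesenchymal markers was also higher in K1, at 6856 to 7894 CPM in TPC1 and 71810 to 75321 CPM in K1 with DMSO. The sum is carried by FN1, at 2994 to 6890 CPM over all TPC1 libraries and 64670 to 72602 CPM over those of K1. Of the 7 mesenchymal markers tested, 5 were called higher in K1 and 0 lower. The summed epithelial markers were higher in K1 as well, at 796 to 917 CPM in TPC1 and 1158 to 1239 CPM in K1 with DMSO. The part of these markers was not tested.

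NKX2-1 had 4 and 7 counts in the K1 DMSO libraries and 0 in TPC1. Its K1 level was 5.54-fold above a floor of 3 counts over the TPC1 group (edgeR adjusted p = 0.0015). SLC5A5, at 5 and 0 counts in K1 and 0 in TPC1, was 2.52-fold above the same floor (edgeR adjusted p = 0.046). Folds against this floor leave out the counting error of the higher group, so they are not lower bounds. For SLC5A5 the 95% counting intervals overlapped, at 0.0224 to 0.161 CPM in K1 and 0 to 0.0337 CPM in TPC1. One K1 library was at 0 like TPC1, so the libraries of the lines overlapped. This call was lost with the replicate number as a block, at an adjusted p of 0.067, and without any of 6 single libraries, TPC1 DMSO replicate 1 or 3, K1 GSK2830371 replicate 1 or 2, or K1 combination replicate 1 or 2. Without K1 DMSO replicate 1, which holds all 5 reads, there is nothing left to compare. HHEX went the other way. It stood at 8.24 and 10.9 CPM in TPC1 and at 2.64 and 2.77 CPM in K1, a log2 difference of -1.84 ± 0.189 (edgeR adjusted p = 2.2e-07). FOXE1, at 25.5 and 22.0 CPM in TPC1 and 28.8 and 29 CPM in K1, passed the adjusted p but not the fold (log2 difference 0.28 ± 0.0819, edgeR adjusted p = 0.0058).

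**Figure D2:**
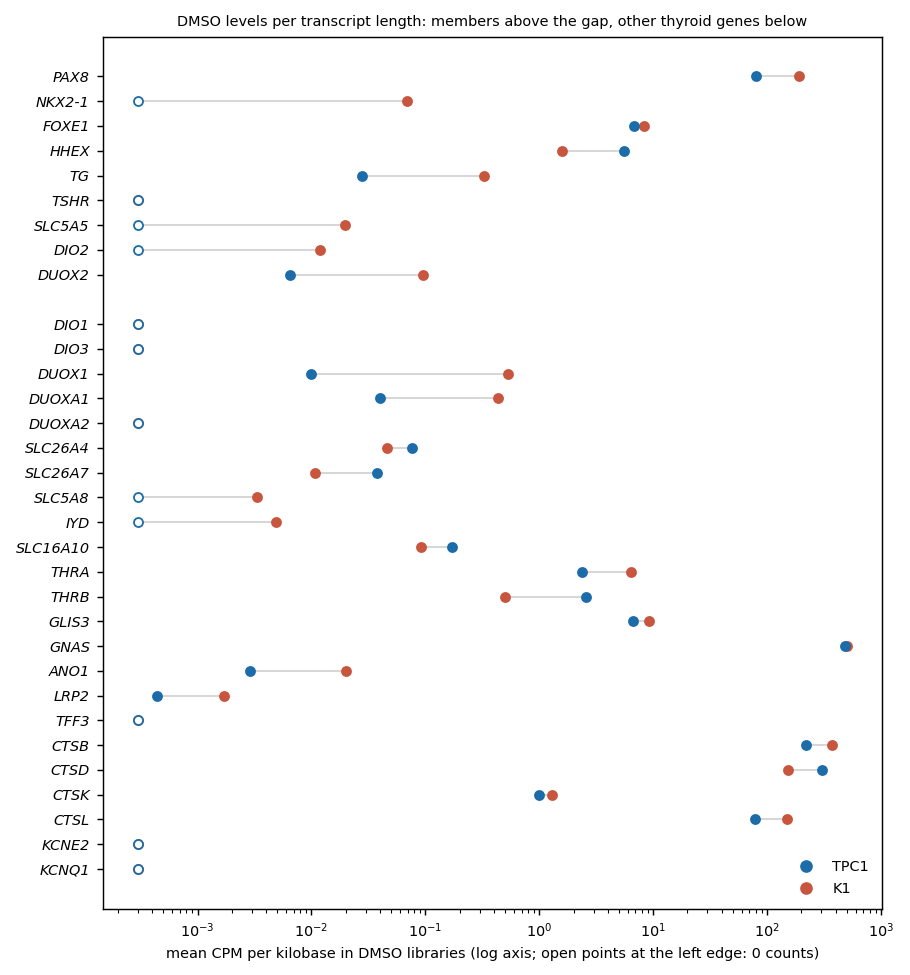
Mean CPM per kilobase of reference transcript in the 2 DMSO libraries of TPC1 (blue) and K1 (red) on a log axis, for the 9 members above the gap and 23 other thyroid genes below it, with genes without a count as open points at the left edge. PAX8 is the highest member at 80.4 in TPC1 and 190 in K1, and DUOX1 differs from 0.00998 in TPC1 to 0.533 in K1.

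Nutlin changed members of both roles in TPC1. The precursor TG, the transporter SLC5A5 and the oxidase DUOX2 were upregulated and the transcription factor HHEX was downregulated. This makes 4 of the 6 members tested, beside 35.5% of the 15273 genes tested in this comparison. SLC5A5 and DUOX2 exceeded the 0.1 CPM of the filter in TPC1 only in libraries with nutlin, alone or in the combination. Their place among the 6 thus depends on the groups where they were higher. TG lies at chr8:133879203-134147147 on the plus strand, where it overlaps SLA on the opposite strand and PTCSC1 on the same strand. Its counts were 6 and 22 with DMSO and 70 and 155 with nutlin, and its CPM went from 0.163 and 0.304 to 2.27 and 2.38. Both nutlin libraries were far above both DMSO libraries, and the log2 fold change was 3.23 ± 0.349 (edgeR adjusted p = 4.9e-05), or 9.4-fold. Without DMSO replicate 3 the log2 fold change of TG was 3.88. SLC5A5, at chr19:17982754-18005983 on the plus strand, had no read in either DMSO library and 4 and 16 with nutlin (edgeR adjusted p = 0.0057). The nutlin level was 7.6-fold above a floor of 3 counts over the DMSO group, without allowance for its own counting error. Even so the nutlin level of SLC5A5 was 0.188 ± 0.0819 CPM, and the call was lost without nutlin replicate 3 (adjusted p = 0.05).

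DUOX2, at chr15:45384848-45406370 on the minus strand, had 0 and 6 counts with DMSO and 8 and 15 with nutlin, a log2 fold change of 2.16 ± 0.732 (edgeR adjusted p = 0.031). The call rests on few reads. It was lost with DESeq2 and without DMSO replicate 1, nutlin replicate 1 or nutlin replicate 3, where the adjusted p reached at most 0.1. Without DMSO replicate 1 the log2 fold change was 1.54, and without DMSO replicate 3 no DMSO read is left. HHEX had 304 and 788 counts with DMSO and 79 and 154 with nutlin, or 8.24 and 10.9 CPM against 2.57 and 2.37 CPM. Its log2 fold change was -1.94 ± 0.169 (edgeR adjusted p = 1.2e-05), a level 3.84-fold lower. In bulk RNA, fewer cells with a transcript and less of it in each cell cannot be told apart. The summed level of the 7 epithelial markers was 796 to 917 CPM with DMSO, 586 to 636 CPM with nutlin and 418 to 479 CPM with the combination. The sum is carried by KRT8 (299 to 517 CPM) and KRT18 (114 to 392 CPM), the other five being at 7.26 CPM or less. Of the 5 epithelial markers tested, nutlin called KRT18 lower (log2 fold change -1.13) and KRT19 higher (1.93). Their part in these results was not tested.

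PAX8 and FOXE1 were not called with nutlin in TPC1. PAX8 stood at 451 and 450 CPM against 326 and 327 CPM with DMSO, without overlap, and its log2 fold change of 0.50 ± 0.0825 passed the adjusted p (edgeR, 0.00074) but stayed short of the fold. FOXE1 stood at 27.0 and 24.6 CPM against 25.5 and 22.0 CPM, and the libraries overlapped (log2 fold change 0.15 ± 0.102, edgeR adjusted p = 0.24).

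In K1, nutlin upregulated 2 of the 7 members tested, TG and SLC5A5, beside 9.27% of the 15900 genes tested. TG counts were 98 and 103 with DMSO and 159 and 183 with nutlin, or 2.79 and 2.77 CPM against 5.5 and 5.57 CPM. The log2 fold change was 1.01 ± 0.128 (edgeR adjusted p = 4.5e-05), and no library of one group reached the other. SLC5A5 had 5 and 0 counts with DMSO and 11 and 21 with nutlin, a log2 fold change of 2.85 ± 0.723 (edgeR adjusted p = 0.0087). This call was lost without DMSO replicate 2 and without nutlin replicate 2, with an adjusted p of up to 0.099. Without DMSO replicate 2 the log2 fold change of SLC5A5 was 1.85, and without DMSO replicate 1 no DMSO read is left. HHEX stood at 1.42 and 2.22 CPM with nutlin and at 2.64 and 2.77 CPM with DMSO, without overlap, but was not called (log2 fold change -0.54 ± 0.218, edgeR adjusted p = 0.077), except without nutlin replicate 2 (adjusted p = 0.024). FOXE1 passed the adjusted p without the fold (log2 fold change 0.20 ± 0.0651, edgeR adjusted p = 0.029). DUOX2 had 17 and 15 counts with nutlin and 21 and 23 with DMSO, a log2 fold change of -0.22 ± 0.376 (edgeR adjusted p = 0.72). NKX2-1 had 10 and 8 counts against 4 and 7, a log2 fold change of 0.94 ± 0.539 (edgeR adjusted p = 0.22).

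GSK2830371 alone called none of the members in either line, beside 1.4% of all genes tested in TPC1 and 2.23% in K1. At an unadjusted p under 0.05, edgeR's test had 0 of the 6 in TPC1 and 2 of the 7 in K1 (FOXE1 and TG), and DESeq2 called 0 in each. In TPC1, TG had 13 and 16 counts against 6 and 22 with DMSO, HHEX stood at 7.57 and 8.68 CPM against 8.24 and 10.9 CPM, and both overlapped with DMSO. In K1, FOXE1 stood at 38.1 and 36.4 CPM against 28.8 and 29 CPM, without overlap, and its log2 fold change of 0.37 ± 0.0646 passed the adjusted p (edgeR, 0.0018) but not the fold. TG in K1 stood at 3.41 and 3.47 CPM against 2.79 and 2.77 CPM (log2 fold change 0.31 ± 0.137, edgeR adjusted p = 0.14).

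The combination called 3 members in TPC1 and 3 in K1. In both lines TG and SLC5A5 were upregulated and HHEX was downregulated, beside 44.2% of all genes tested in TPC1 and 15.7% in K1. Both of these comparisons use the same DMSO libraries as the comparisons with a single drug. In TPC1, TG had 184 and 221 counts, or 4.99 and 3.52 CPM, and its log2 fold change against DMSO was 4.10 ± 0.335 (edgeR adjusted p = 5.6e-06), and 4.74 without DMSO replicate 3. SLC5A5 had 9 and 6 counts against none, 5.48-fold above the floor of 3 counts over the DMSO group (edgeR adjusted p = 0.0082). In TPC1 it passed the filter only through libraries with nutlin, alone or in the combination. HHEX stood at 3.06 and 3.21 CPM, a log2 fold change of -1.56 ± 0.163 (edgeR adjusted p = 2.8e-05). DUOX2 had 6 and 7 counts, a log2 fold change of 1.32 ± 0.805 that was not called (edgeR adjusted p = 0.18), except without DMSO replicate 3, where DMSO is left with no read (adjusted p = 0.023). C cell markers in TPC1 were higher in sum with each treatment than with DMSO. Their summed level was 0.732 to 1.13 CPM with DMSO, 1.4 to 2.24 CPM with nutlin, 1.46 to 1.75 CPM with GSK2830371 and 2.83 to 2.9 CPM with the combination. Of the 4 tested, none was called with nutlin or with GSK2830371 alone. With the combination 3 were higher than with DMSO (CALCB, CHGA and SYP) and 2 than with nutlin (CALCB and CHGA). CALCB and CHGA were at no more than 0.407 and 0.325 CPM in any TPC1 library, while SYP ran from 0.65 to 1.97 CPM. In K1 the sum was 1.96 to 2.05 CPM with DMSO, 1.19 to 2.01 CPM with nutlin, 1.45 to 1.65 CPM with GSK2830371 and 1.99 to 2.1 CPM with the combination, and none was called by a drug. Their part in the TG results was not tested.

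In K1, TG stood at 6.18 and 6.17 CPM with the combination, a log2 fold change of 1.12 ± 0.126 (edgeR adjusted p = 7.8e-06). SLC5A5 had 15 and 13 counts, a log2 fold change of 2.56 ± 0.746 (edgeR adjusted p = 0.013), which was lost without DMSO replicate 2 or combination replicate 1 (adjusted p up to 0.093). It was 1.56 without DMSO replicate 2, and without DMSO replicate 1 no DMSO read is left. HHEX had 46 and 38 counts against 93 and 103, a log2 fold change of -1.08 ± 0.231 (edgeR adjusted p = 0.0018). The level of PAX8 with the combination overlapped that with DMSO in both lines, with a log2 fold change of -0.05 ± 0.0824 in TPC1 (edgeR adjusted p = 0.61) and 0.02 ± 0.051 in K1 (edgeR adjusted p = 0.81).

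**Figure D3:**
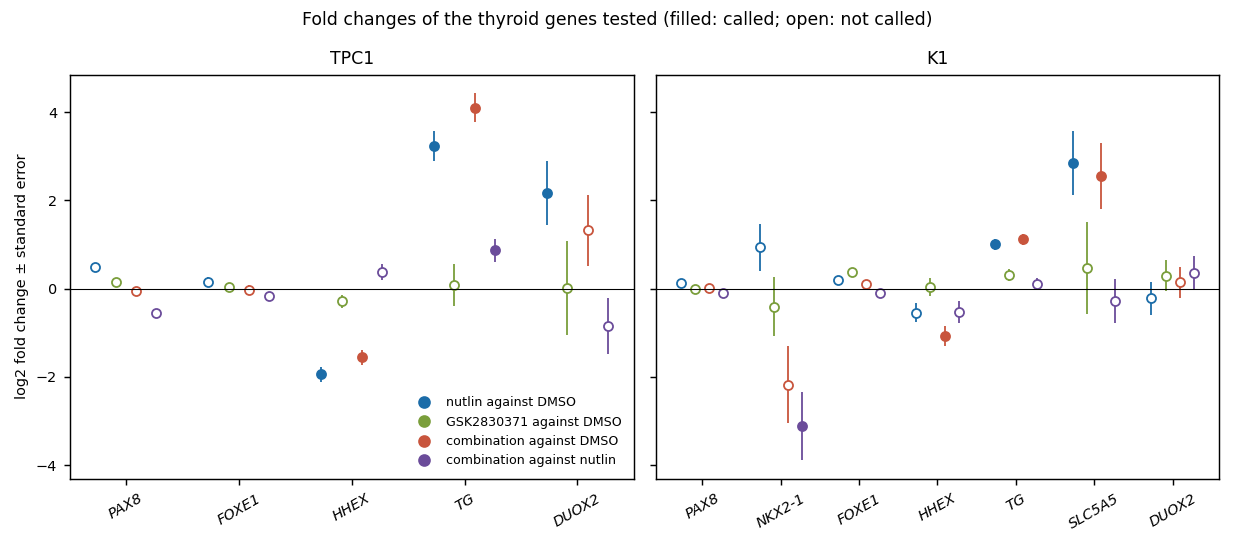
Log2 fold changes with their standard errors from edgeR's fits for the members tested in TPC1 (left) and K1 (right), colored by comparison and filled where called. SLC5A5 in TPC1 is left out because its DMSO libraries hold no read. TG is above 0 with nutlin and the combination in both lines, at 3.23 and 4.10 in TPC1 and at 1.01 and 1.12 in K1.

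Whether GSK2830371 added to nutlin was examined by comparing the combination with nutlin and by the interaction, the departure of the combination from the sum of the 2 single effects on the log2 scale. In TPC1, TG was higher with the combination than with nutlin (4.99 and 3.52 CPM against 2.27 and 2.38 CPM), the 1 member called of 6, beside 12.1% of all genes tested. The log2 fold change was 0.87 ± 0.256 (edgeR adjusted p = 0.035). It was lost without nutlin replicate 1, nutlin replicate 3 or combination replicate 1, with an adjusted p of up to 0.15. PAX8 stood at 328 and 280 CPM with the combination, below 451 and 450 CPM with nutlin, and the log2 fold change of -0.55 ± 0.0826 passed the adjusted p (edgeR, 0.0018) but not the fold. Without combination replicate 1 this difference was called, at a log2 fold change of -0.65.

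PAX8 was also the 1 member called for interaction in TPC1, beside 6.32% of all genes tested. Its mean level was 326 CPM with DMSO, 450 CPM with nutlin and 372 CPM with GSK2830371, and it stood at 304 ± 34.4 CPM with both drugs, and the interaction was -0.69 ± 0.117 (edgeR adjusted p = 0.01). The call was lost without nutlin replicate 1, nutlin replicate 3 or GSK2830371 replicate 1 (adjusted p up to 0.059). With the replicate number as a block 2 members were called, the added one being HHEX with an interaction of 0.69 (edgeR adjusted p = 0.015), against 0.67 ± 0.235 without the block (edgeR adjusted p = 0.12). HHEX was called without DMSO replicate 1 as well.

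In K1 the 1 member called between the combination and nutlin was NKX2-1, beside 2.68% of all genes tested. Its counts were 10 and 8 with nutlin and 1 and 1 with the combination, a log2 fold change of -3.12 ± 0.774 (edgeR adjusted p = 0.019). With these few reads the call was lost with DESeq2 and without any 1 of the 4 libraries compared, where the adjusted p reached at most 0.12. Levels of 0.295 ± 0.0725 CPM with nutlin and 0.0312 ± 0.000257 CPM with the combination are both below 1 CPM. No member was called for interaction in K1, beside 2.44% of all genes tested. Of the 7 members 2 had an unadjusted p under 0.05 in edgeR's test (NKX2-1 and FOXE1), and DESeq2 called 0. The FOXE1 interaction of -0.46 ± 0.0917 passed the adjusted p (edgeR, 0.013) but not the fold.

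The effects of nutlin in the 2 lines were compared directly, as a difference of log2 fold changes. The response of 3 of the 7 members differed, beside 19.2% of all genes tested. For TG the nutlin effect was smaller in K1 than in TPC1, by -2.24 ± 0.349 (edgeR adjusted p = 0.00013), and the K1 DMSO level of 2.78 CPM was already above the TPC1 nutlin level of 2.33 CPM. Without TPC1 DMSO replicate 3 this difference was -2.91. For HHEX the effect was less negative in K1, by 1.37 ± 0.303 (edgeR adjusted p = 0.0024), which was lost without K1 nutlin replicate 2 (adjusted p = 0.052). For DUOX2 the difference was -2.38 ± 0.795 (edgeR adjusted p = 0.032), and it was lost without any of 6 libraries, TPC1 DMSO replicate 1, TPC1 nutlin replicate 1 or 3, K1 DMSO replicate 1 or 2, or K1 nutlin replicate 2, with an adjusted p of up to 0.08. It was -1.76 without TPC1 DMSO replicate 1, and without TPC1 DMSO replicate 3 no TPC1 DMSO read is left. For SLC5A5 no difference between the lines was called (edgeR adjusted p = 0.24). With no SLC5A5 read in the TPC1 DMSO libraries, the size of this difference has no usable estimate. NKX2-1, with no read in TPC1, gives no estimate either. With the combination, the effect differed for TG (-2.98 ± 0.336, edgeR adjusted p = 3.3e-06) as the 1 member called, beside 25.7% of all genes tested. The value was -3.64 without TPC1 DMSO replicate 3. CDKN1A moved in the same direction as TG, its nutlin effect being smaller in K1 by -2.48 ± 0.149 (edgeR adjusted p = 4.3e-09). Its part in the TG result was not tested.

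The order of the group means is described here for the members with reads, without a test. For TG the order from high to low was the K1 combination, K1 nutlin, the TPC1 combination, K1 GSK2830371, K1 DMSO, TPC1 nutlin, TPC1 GSK2830371 and TPC1 DMSO, and only the last neighbours had overlapping libraries. For PAX8 all 4 K1 groups were above all 4 TPC1 groups, K1 nutlin came first at 836 ± 7.14 CPM, and the other K1 groups overlapped in sequence. For HHEX the order ran from TPC1 DMSO and TPC1 GSK2830371, which overlapped, down to K1 nutlin and the K1 combination, which overlapped as well. For DUOX2 all K1 groups, from 0.523 ± 0.093 to 0.748 ± 0.345 CPM, were above TPC1 nutlin at 0.245 ± 0.0208 CPM. For SLC5A5, K1 nutlin and the K1 combination led and overlapped at 0.51 ± 0.183 and 0.437 ± 0.0477 CPM. For DIO2 every pair of neighbours overlapped.

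The other genes of the thyroid program were taken from a list of 25, of which 14 were tested in each line. With nutlin in TPC1, 5 were upregulated and 1 downregulated, beside 35.5% of all genes tested that were called. Among these DUOX1, the near relative of DUOX2, and its maturation factor DUOXA1 had log2 fold changes of 2.21 ± 0.524 and 1.68 ± 0.521 (edgeR adjusted p = 0.0058 and 0.022). DUOX1 passed the filter in TPC1 only through libraries with nutlin, alone or in the combination. SLC26A7, an anion transporter of the follicular cell, had 2.58 ± 0.391 (edgeR adjusted p = 0.00043). The lysosomal proteases CTSD and CTSK, of the kind that releases hormone from thyroglobulin, had 1.32 ± 0.0805 and 1.06 ± 0.173, and the thyroid hormone receptor THRA had -0.76 ± 0.173 (edgeR adjusted p = 1.2e-06, 0.00069 and 0.0047). The median log2 fold change of the 14 was 0.3 beside -0.002 over all genes tested. With the combination in TPC1, CTSD, CTSK, DUOX1, DUOXA1 and SLC26A7 were upregulated and THRA was downregulated, against the same DMSO libraries and beside 44.2% of all genes tested, with a median of 0.33 beside 0.004. The nutlin call of DUOX1 was lost without nutlin replicate 3 (adjusted p = 0.057). That of DUOXA1 was lost without DMSO replicate 1, nutlin replicate 1 or nutlin replicate 3 (up to 0.079), and its combination call without DMSO replicate 1 or combination replicate 1 (up to 0.13). Without DMSO replicate 3 the DUOXA1 values were 2.41 with nutlin and 2.33 with the combination, against 1.68 and 1.61 with all libraries.

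In K1, nutlin upregulated 2 of the 14, beside 9.27% of all genes tested. They were DUOX1 (log2 fold change 0.88 ± 0.195) and SLC26A7 (2.48 ± 0.723), with edgeR adjusted p of 0.0037 and 0.019, and the median was 0.12 beside -0.002 over all genes. SLC26A7 passed the filter in K1 only through libraries with nutlin, alone or in the combination. The combination upregulated 5 of the 14, beside 15.7% of all genes tested, which were CTSK, DUOX1, the iodide and chloride exchanger SLC26A4 (1.38 ± 0.459), SLC26A7 and the hormone receptor THRB (0.76 ± 0.14), with a median of 0.14 beside 0.012. In these comparisons the calls of SLC26A4 and SLC26A7 in K1 were lost with DESeq2, and DUOX1 and THRB were called under every alternative run. Leaving out 1 library ended the SLC26A7 call for nutlin (DMSO replicate 2 or nutlin replicate 1), and for the combination those of SLC26A7 (DMSO replicate 2 or combination replicate 2), SLC26A4 (DMSO replicate 1, combination replicate 1 or 2) and CTSK (DMSO replicate 1 or combination replicate 2), with adjusted p of up to 0.21. For SLC26A7 the log2 fold change was 3.43 without DMSO replicate 1 and 1.89 without DMSO replicate 2 with nutlin, and 3.10 and 1.56 with the combination. For SLC26A4 with the combination it was 2.31 without DMSO replicate 2. THRB was also higher with the combination than with nutlin in K1 (0.63 ± 0.142, edgeR adjusted p = 0.011), a call lost without nutlin replicate 1 or 2 or combination replicate 1 (up to 0.12). In TPC1 the interaction called THRB upward (0.80 ± 0.133, edgeR adjusted p = 0.0095). The THRB call was lost without nutlin replicate 1 or GSK2830371 replicate 3 (up to 0.053). GSK2830371 called 0 of the 14 in either line, beside 1.4% of all genes tested in TPC1 and 2.23% in K1. At an unadjusted p under 0.05 edgeR's test had 3 of the 14 in TPC1 and 6 in K1, while DESeq2 called 0. The DUOX1 and DUOXA1 genes overlap on opposite strands, and the counting used the strand.

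Between the lines under DMSO, 6 of the 14 were higher and 4 lower in K1, beside 46.2% of all genes tested. The SLC26A7 call, lower in K1 at a log2 difference of -1.87, was lost with DESeq2 and without TPC1 DMSO replicate 3 or K1 DMSO replicate 2 (adjusted p up to 0.21), and the value ran to -2.83 without K1 DMSO replicate 1 and -1.27 without K1 DMSO replicate 2. The DUOXA1 difference was 3.27, and 4.02 without TPC1 DMSO replicate 3. The difference in DUOX1 was 50-fold, with 0.0547 ± 0.000709 CPM in TPC1 and 2.92 ± 0.857 CPM in K1 (log2 difference 5.64 ± 0.37, edgeR adjusted p = 7.8e-10). DUOXA2, the maturation factor of DUOX2, had no read in either DMSO group. Among the 13 paralogs of the members, PAX2 and PAX5, which belong to the same subfamily as PAX8, and NKX2-5 were above 1 CPM in TPC1 while NKX2-1 was not read there. PAX2 stood at 21.5 ± 2.96 CPM with DMSO and PAX5 went from 11.8 ± 1.63 CPM with DMSO to 0.928 ± 0.0298 CPM with the combination, while both were at 0 in the K1 DMSO libraries. NKX2-5 stood at 12.3 ± 1.03 CPM with DMSO and 47.3 ± 2.17 CPM with the combination in TPC1. SLC5A6, a vitamin transporter related to SLC5A5, was above 1 CPM in both lines, and so was DUOX1 in K1 alone.

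The genes most like each called member were looked up by the Pearson correlation of log2 CPM over the 8 libraries of a line, among genes that averaged 1 CPM or more there. These correlations are a description, since the libraries share their treatments and depth, and each is the highest of at least 12302 genes. In K1 the genes most like TG were CDKN1A (r = 0.999), FDXR (0.999) and YBX3 (0.998). In TPC1 those most like TG were ARHGEF37 (0.996), KLLN (0.996) and PAFAH2 (0.995). HHEX was most like TIMM10 (0.998), FAF1 (0.997) and COA1 (0.996) in TPC1 and TENC1 (0.981), POLR2E (0.980) and CMTM7 (0.979) in K1. PAX8 in TPC1 was most like DPP3 (0.985), VPS18 (0.981) and DAB2 (0.980). For the members with few reads the nearest genes were ESPNL (0.979), NALCN (0.960) and LAMTOR1 (0.956) for SLC5A5 in TPC1, IDS (0.981), FAM168A (0.981) and PIK3IP1 (0.977) for SLC5A5 in K1, SLC44A3 (0.994), TCN2 (0.988) and ARMC7 (0.985) for DUOX2 in TPC1, and DAW1 (0.957), FAM189A1 (0.943) and RENBP (0.939) for NKX2-1 in K1.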

How the data were processed

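RNA was measured by single-end, strand-specific sequencing of poly(A) RNA in 16 libraries. Per the file headers and the study's methods, the authors deposited raw read counts per gene symbol, made with TopHat2 2.0.13 on GRCh37, removal of reads with a mapping quality below 10, and HTSeq 0.6.1 with the reverse strand setting on exons. Reads that match several places were thus largely removed, which can lower genes with close copies. Every sample column was used. A replicate number of 3 in 4 of the TPC1 column names matches no label. These columns were assigned to their treatment only, and TPC1 libraries are named by column number.

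Genes above 0.1 CPM in at least 2 libraries were kept (15273 in TPC1, 15900 in K1, and 16738 for both lines). Counts were fitted per line, all treatments together, and for both lines in 1 fit, with TMM scaling and the quasi-likelihood test of edgeR 4.0.16 in R 4.3.3, with Benjamini-Hochberg adjustment over all genes tested. Standard errors are the log2 fold change over the root of the F statistic. Alternatives were DESeq2 1.42.0, DESeq2 size factors, library size alone, filterByExpr, no filter, a fit of the compared groups alone, the replicate number as a block, and each library left out. The fit was tested on simulated data with 200 changed genes. These were drawn from genes with many reads, so the simulation did not cover members with few reads. Limits of counts of 0 are 3 counts over the total. Levels per kilobase use the reference (MANE Select) transcript. Genes were named by rule, which took all 9 members, the other thyroid genes called within a line or over 10-fold apart between the lines, paralogs above 1 CPM, and the 3 genes most like each called member (log2 of CPM plus 0.5). Of the 25 other thyroid genes, 2 are counted in the list but not reported here by name. The members and lists were chosen with earlier results of these data known.

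Whether replicate numbers pair the libraries was checked by correlating deviations from the group means between treatments. In TPC1 all 6 pairs of treatments gave 0.496 to 0.696 over 12303 genes, so the numbers were taken to pair the libraries there. The main fits did not use this pairing. It entered only in the alternative with the replicate number as a block. In K1 they gave -0.357 to 0.376.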

Additional observations from a re-analysis of the deposited data

Results flagged for a closer look

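The following genes were picked out because the effect of a drug differed between the lines by the test of the difference itself, in edgeR's fit of all 16 libraries. Values are K1 minus TPC1 on the log2 scale. Among the members, the nutlin effect differed by 1.37 for HHEX, -2.24 for TG and -2.38 for DUOX2 (edgeR adjusted p = 0.0024, 0.00013 and 0.032), and the combination effect by -2.98 for TG (edgeR adjusted p = 3.3e-06). Among the other thyroid genes, the nutlin effect differed by 0.74 for THRA and -1.05 for CTSD (edgeR adjusted p = 0.0047 and 2e-06). The combination effect differed by -1.94 for DUOX1, -1.57 for DUOXA1, 1.11 for THRA and -0.77 for CTSD (edgeR adjusted p = 0.013, 0.025, 0.00014 and 3.4e-05). The line cannot be told apart from its medium, or from any other difference in handling, in any of them. The difference in DUOX1 was lost without TPC1 DMSO replicate 3 (adjusted p = 0.093), and that in DUOXA1 without TPC1 DMSO replicate 1, TPC1 combination replicate 1, K1 DMSO replicate 1 or K1 combination replicate 2 (up to 0.14). Without TPC1 DMSO replicate 3 the difference was -2.91 for TG with nutlin, -3.64 for TG with the combination and -2.31 for DUOXA1 with the combination. Without TPC1 DMSO replicate 1 it was -1.76 for DUOX2 with nutlin, and the call was lost.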

How the results depend on the processing

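Over all counts of members, 199 of 218 alternatives stayed within 1.5 times the main count, and over single genes 482 of 522 kept their direction and side of the threshold, 34 lost the call, 6 gained it and 0 reversed. Where a count moved, leaving out 1 library gave 2 to 4 members for nutlin in TPC1 (4 in the main fit, 2 without nutlin replicate 3), 0 to 1 for the combination against nutlin in TPC1 and in K1, 0 to 2 for the interaction in TPC1, 1 to 2 for nutlin in K1, 1 to 3 for the nutlin effect between the lines and 1 to 2 for the combination effect. For the combination against nutlin in K1, filterByExpr and DESeq2 each gave 0, since NKX2-1 was not tested under the former. The cause of the latter was not tested. With the replicate block the interaction in TPC1 had 2 members in place of 1, and SLC5A5 lost its difference between the lines under DMSO, at an edgeR adjusted p of 0.067. The block changed no other count of calls in TPC1. In K1 the numbers do not pair the libraries, and the block gave the same counts of members. A floor of 1 CPM gave 5 silent members in each line in place of 3 in TPC1 and 2 in K1. A lone library of a group left by an omission was assumed to vary like the other groups. Without K1 DMSO replicate 1, SLC5A5 had no read in either DMSO group and gave no value between the lines. Depth limits the genes with few reads. In TPC1 a library at 0 allows 0.0391 to 0.0974 CPM, and in K1 0.0807 to 0.104 CPM.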
